A study of Mus musculus with 7 samples.

Results

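Sense transcripts of total mouse brain were set against those of total mouse kidney, as read on Affymetrix arrays with biotin-labelled cRNA. The brain group was 1 array of the 430A type, prepared from 8 micrograms of total RNA, and the kidney group was 1 array of the 430 2.0 type, prepared from 6.75 micrograms. These are 2 of the 7 arrays of the series. Both tissues were dissected, rinsed in cold buffer and extracted with TRIzol, and neither carried a treatment or a named allele. The labels used here name no strain, age, sex or number of animals, and do not say whether tissue was pooled. The arrays share 22626 probe set identifiers, short-oligonucleotide sets that each stand for 1 transcript or a few related ones, out of 45037 used here on the kidney array. They stand for 12393 named genes. With 1 array a side there is no replicate check and no test can be made, and the tissue and the array type cannot be told apart.

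Brain tissue is a mixture of neurons, which release transmitters at synapses and carry long cytoskeleton-filled axons, and of glia that insulate and feed them. The kidney is a mixture of epithelial segments: the glomerulus filters blood, the proximal tubule takes back sugar, amino acids and phosphate and makes glucose and vitamin D, and the loop, distal tubule and collecting duct adjust salt, water and acid. The proximal tubule burns fatty acids as its main fuel, whereas neurons depend on glucose. In such bulk tissue, fewer cells of a type and less RNA per cell cannot be told apart.

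The deposited values are MAS5 signals on a linear scale, with a median of 104.0 on the brain array and 121.2 over the same probe sets on the kidney array. Brain signals were multiplied by 1.79, which brings the median ratio to zero over 8463 probe sets, those brighter than the median on each array. Signals under a floor of 186.4 in kidney units, which is 104.0 in deposited brain units, were raised to the floor, since signals below it were taken as too low to rank. The threshold for a call in either direction was 2-fold. Where the lower tissue lay under the floor, the fold is a lower limit and is written as at least N-fold. Signals printed below are as deposited, and folds are after centring, so a fold differs from the plain ratio of the printed signals. The only repeat at hand is that 100 probe sets were read from brain on both 430A and 430B. For the 98 of them above the median on both arrays, the log2 ratio of 430B over 430A had a median of 1.33 and an SD of 0.25. The largest single gap after centring was 1.05.

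The labelled tissues carried their defining transcripts. For brain, Syt1, the calcium sensor of synaptic vesicles, had a signal of 807 in brain and 22.7 in kidney, and Gad1, which makes the inhibitory transmitter GABA, 1023 in brain and 13.8 in kidney. Snap25, of the vesicle fusion machinery, and Mbp, of myelin, were among the genes furthest towards brain, described below. The glutamate transporter Slc1a2 read 129 in brain and 2.2 in kidney, within 2-fold of the floor on this array. For kidney, Slc34a1, the phosphate transporter of the proximal tubule, read 62.5 in brain and 4768 in kidney, and Aqp2, the water channel of the collecting duct, 109 in brain and 1586 in kidney. Umod, Slc12a1 and Lrp2 were also higher in kidney, by at least 12.9-fold.

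Of 13364 probe sets above the floor on at least 1 array, 2649 were higher in brain (19.8%), 2814 were higher in kidney (21.1%) and 7901 were within 2-fold. Another 9262 were below the floor on both. By gene, each represented by the probe set that ranked highest on average across the arrays, 8165 passed the floor; 1568 of them were called for brain (19.2%) and 1658 for kidney (20.3%). Among these genes, 4930 were above the floor on both arrays and 3235 on 1 array only. A gene of the second kind was kept through the tissue in which it is high, so counts over genes above the floor describe the arrays and support nothing further. List counts below are to be read beside the shares of 19.2% for brain and 20.3% for kidney. Of the brain calls 903 were lower limits, against 586 of the kidney calls. At 4-fold the counts were 511 genes for brain and 551 for kidney, at 16-fold 54 for brain and 53 for kidney, and at 32-fold 8 for brain and 11 for kidney. The even split depends on the scaling: with signals as deposited, 1515 probe sets were higher in brain and 5358 in kidney, and centred on all shared probe sets 1938 and 4760.

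**Figure D1:**
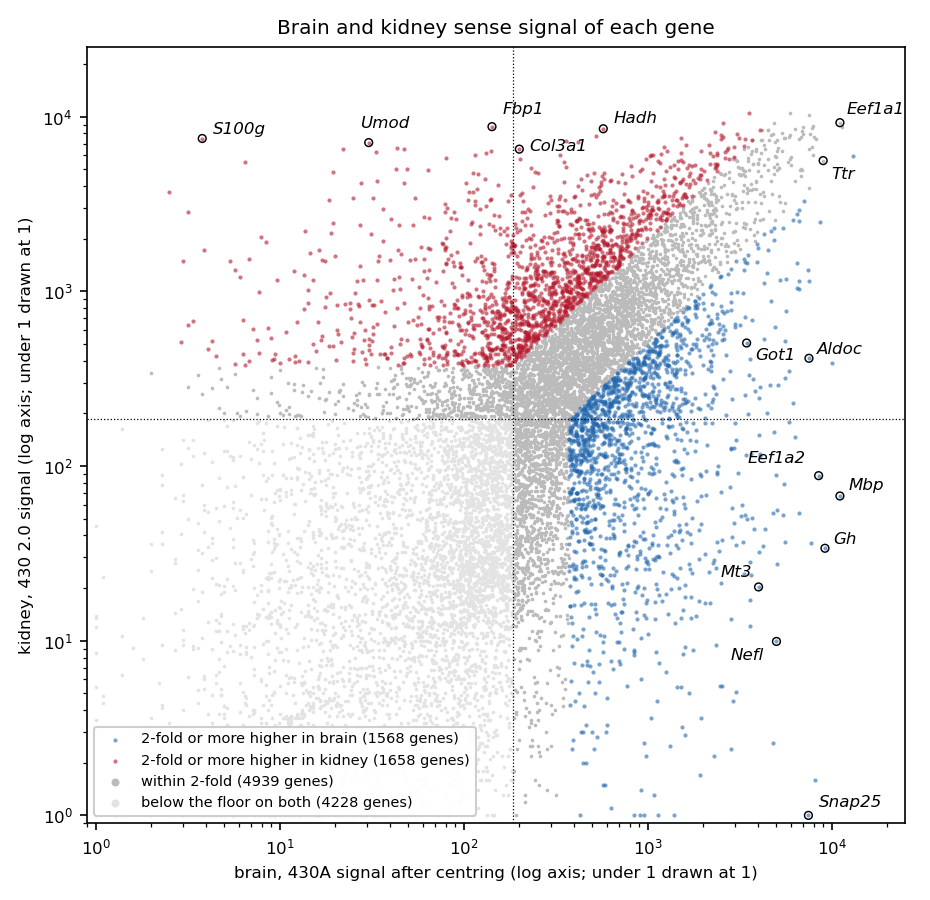
Each point is 1 gene, with its centred brain 430A signal on the x axis and its kidney 430 2.0 signal on the y axis, both in signal units on log axes. Dotted lines mark the floor of 186.4; the 1568 genes higher in brain lie to the lower right, the 1658 higher in kidney to the upper left, and selected genes are named.

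The ratio moved with signal strength. When probe sets above the floor were sorted by mean signal into 10 equal groups, the median log2 ratio was 0.69 in the third group from the dim end and -0.63 in the brightest. In the brightest group, 8.5% of probe sets were called for brain and 35.8% for kidney. A loess curve that centres the ratio at each signal strength gave 16.8% and 16.7% there. Groups of bright genes, among them those of the respiratory chain, the citrate cycle and protein quality control, are therefore given below with their loess values too. Whether this trend belongs to the tissues or to the arrays cannot be told apart.

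**Figure D2:**
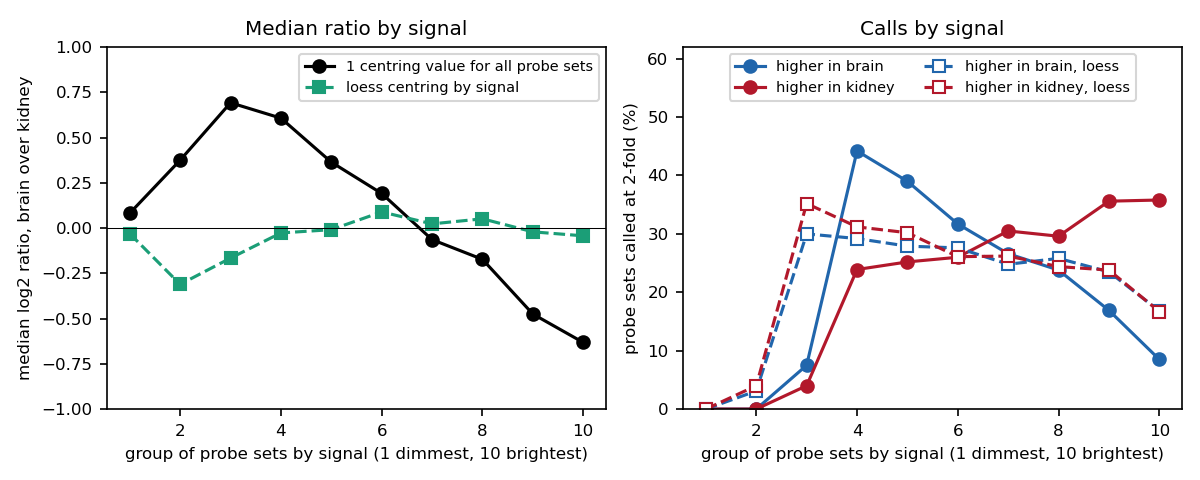
The left panel plots the median log2 ratio, brain over kidney, in 10 equal groups of probe sets ordered by signal, with 1 centring value (circles, solid) and with loess centring (squares, dashed). The right panel plots the percentage of probe sets called higher in brain and in kidney in the same groups; with 1 centring value the brightest group holds 8.5% and 35.8%.

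The genes furthest towards brain were products of neurons, myelin and pituitary cells. Mbp, the myelin basic protein, read 6184 in brain against 67.3 in kidney, at least 59.5-fold towards brain. Gh, growth hormone, read 5129 in brain against 33.8 in kidney, at least 49.3-fold towards brain, and Prl, prolactin, 4519 in brain against 1.6 in kidney, at least 43.5-fold towards brain. Both are hormones of the anterior pituitary. Eef1a2, the elongation factor that replaces its sister in neurons and muscle, read 4737 in brain against 88 in kidney, at least 45.5-fold towards brain. Rtn1, a reticulon of the endoplasmic reticulum of neurons, read 4320.3 in brain against 36.3 in kidney, at least 41.5-fold towards brain. Snap25 read 4170.0 in brain against 0.2 in kidney, at least 40.1-fold towards brain. The kidney signals of all these genes were under the floor. Dnm1, the dynamin that pinches off synaptic vesicles, read 3708 in brain against 54.1 in kidney, at least 35.6-fold towards brain, and Tubb4a, a beta tubulin, 3538 in brain against 146 in kidney, at least 34.02-fold towards brain. Meg3, an imprinted noncoding RNA, read 3272 in brain against 178 in kidney, at least 31.5-fold towards brain, on a probe set of a kind that Affymetrix marks as open to cross-hybridisation. The other 6 of the leading 15 were Pcsk1n, Spock2, Pomc, Cplx1, Eno2 and Nefl, at 26.9-fold or more. They encode an inhibitor of prohormone convertase, an extracellular proteoglycan, the precursor of corticotropin, a regulator of vesicle fusion, the neuronal enolase and the neurofilament light chain.

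The genes furthest towards kidney were tubule products and matrix. Fbp1, the gluconeogenic fructose bisphosphatase, read 79.6 in brain against 8749 in kidney, at least 46.95-fold towards kidney. S100g, a calcium-binding protein of calcium-transporting epithelia, read 2.1 in brain against 7484 in kidney, at least 40.2-fold towards kidney. Klk1 belongs to a family of near-identical genes, as do Gsta2, Hspa1b and H2-K1 below, so their signals may include those of relatives. Umod, uromodulin of the thick ascending limb, read 17 in brain against 7093 in kidney, at least 38.1-fold towards kidney. All 3 brain signals lay below the floor. Cltrn, collectrin, which carries amino acid transporters to the brush border, read 24.4 in brain against 6586 in kidney, at least 35.3-fold towards kidney. Klk1, tissue kallikrein, read 12.4 in brain against 6527 in kidney, at least 35.02-fold towards kidney, and Fxyd2, the regulatory gamma subunit of the sodium pump, 78.7 in brain against 6373 in kidney, at least 34.2-fold towards kidney. Serpina6, the corticosteroid-binding globulin, read 18.6 in brain against 6292 in kidney, at least 33.8-fold towards kidney, and Spp2, a secreted phosphoprotein, 73.9 in brain against 6165 in kidney, at least 33.1-fold towards kidney. Slc27a2, an acyl-CoA synthetase and fatty acid transporter, read 44.7 in brain against 5784 in kidney, at least 31.04-fold towards kidney, and Aadat, an aminotransferase of lysine and kynurenine breakdown, 27.4 in brain against 5031 in kidney, at least 27.0-fold towards kidney. Spink1, a trypsin inhibitor, read 3.6 in brain against 5502 in kidney, at least 29.5-fold towards kidney. The remaining 4 were Cdh16, a cadherin of kidney epithelium, Miox, which opens the inositol ring, Col3a1, a fibrillar collagen, and Pdzk1ip1, a small membrane protein of the brush border. Col3a1 and Pdzk1ip1 were the only ones of the leading 15 with a brain signal above the floor, so their folds, 32.4 and 28.0, are measured rather than limits.

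Among genes above the floor on both arrays the measured differences were smaller. Of the brain calls 665 were of this kind and of the kidney calls 1072. The genes given next were chosen after their values were seen. Aplp1, an amyloid precursor relative, read 3428 in brain against 230.1 in kidney, 26.7-fold towards brain, Ndrg4 read 5622 in brain against 387 in kidney, 26.03-fold towards brain, and Rab6b, a vesicle GTPase, 2479.7 in brain against 201 in kidney, 22.1-fold towards brain. On the kidney side Cd24a, a surface glycoprotein of epithelia and precursor cells, read 186 in brain against 6045 in kidney, 18.2-fold towards kidney. Ech1, an isomerase of fatty acid oxidation, read 113 in brain against 3549 in kidney, 17.6-fold towards kidney, and Igfbp7, a secreted binding protein, 234 in brain against 7138 in kidney, 17.02-fold towards kidney. Each of these 6 genes kept its direction under every scaling, floor and probe set choice listed in the closing part.

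Promoter sequences were taken from RefSeq (build GRCm38.p6), as the 250 bases before and 50 after a transcript start. A promoter was found for 9887 of the 12393 genes and for 22 of the 30 leading genes. They were searched on both strands for 7 short motifs. HNF1 (GTTAATNAT) and HNF4 (CAAAGTCCA) are named after hepatocyte nuclear factors that are active in proximal tubule, and CRE (TGACGTCA) after the cyclic AMP response element. For some of the 30 leading genes and the 4 furthest of each list, promoters were not found or were left out of the listing of matches. The number given next is therefore not a count over all of these genes. Among the rest, 8 genes held the HNF1, HNF4 or CRE motif. They are printed with the motif match in capitals, to show where it lies relative to the start. Of genes higher in brain these are Chgb (chr2:132781392-132781691, plus strand) and Meg3 (chr12:109540746-109541045, plus), both with CRE. Of genes higher in kidney they are Cltrn (chrX:164089937-164090236, plus) and G6pc (chr11:101367466-101367765, plus) with HNF1, Pdzk1 (chr3:96829815-96830114, plus) and Aadat (chr8:60505874-60506173, plus) with HNF4, and Abcg2 (chr6:58640296-58640595, plus) and Uqcrfs1 (chr13:30545267-30545566, minus) with CRE.
Chgb: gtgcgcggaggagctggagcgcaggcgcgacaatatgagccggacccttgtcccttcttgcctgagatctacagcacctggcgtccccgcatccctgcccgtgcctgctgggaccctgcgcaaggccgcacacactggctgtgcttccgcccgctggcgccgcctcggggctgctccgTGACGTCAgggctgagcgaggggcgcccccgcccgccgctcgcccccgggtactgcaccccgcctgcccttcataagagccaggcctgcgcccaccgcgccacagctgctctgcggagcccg
Meg3: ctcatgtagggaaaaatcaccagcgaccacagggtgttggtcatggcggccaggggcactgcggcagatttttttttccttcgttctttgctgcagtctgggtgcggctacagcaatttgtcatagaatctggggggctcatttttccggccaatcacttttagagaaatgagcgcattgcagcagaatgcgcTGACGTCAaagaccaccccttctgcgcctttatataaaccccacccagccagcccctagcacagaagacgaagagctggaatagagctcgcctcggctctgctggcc
Cltrn: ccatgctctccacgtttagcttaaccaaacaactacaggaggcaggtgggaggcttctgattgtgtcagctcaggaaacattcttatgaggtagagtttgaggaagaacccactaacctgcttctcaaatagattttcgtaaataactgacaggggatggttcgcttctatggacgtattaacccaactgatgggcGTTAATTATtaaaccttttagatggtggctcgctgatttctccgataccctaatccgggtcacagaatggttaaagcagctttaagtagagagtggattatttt
G6pc: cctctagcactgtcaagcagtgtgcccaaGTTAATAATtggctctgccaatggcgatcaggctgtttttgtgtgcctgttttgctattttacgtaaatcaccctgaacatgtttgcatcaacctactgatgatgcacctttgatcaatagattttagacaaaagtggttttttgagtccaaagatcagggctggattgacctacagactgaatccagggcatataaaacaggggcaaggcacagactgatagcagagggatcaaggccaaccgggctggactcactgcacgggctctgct
Pdzk1: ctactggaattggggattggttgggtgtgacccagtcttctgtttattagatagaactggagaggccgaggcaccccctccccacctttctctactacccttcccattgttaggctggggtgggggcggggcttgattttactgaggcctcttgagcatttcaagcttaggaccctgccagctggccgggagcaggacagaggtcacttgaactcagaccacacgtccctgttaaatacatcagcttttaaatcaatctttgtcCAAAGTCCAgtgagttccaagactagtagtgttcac
Aadat: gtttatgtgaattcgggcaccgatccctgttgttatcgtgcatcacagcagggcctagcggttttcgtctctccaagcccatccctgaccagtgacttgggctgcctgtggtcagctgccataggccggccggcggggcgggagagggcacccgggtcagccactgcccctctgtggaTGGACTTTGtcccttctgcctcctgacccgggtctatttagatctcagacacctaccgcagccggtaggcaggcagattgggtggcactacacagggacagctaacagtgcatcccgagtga
Abcg2: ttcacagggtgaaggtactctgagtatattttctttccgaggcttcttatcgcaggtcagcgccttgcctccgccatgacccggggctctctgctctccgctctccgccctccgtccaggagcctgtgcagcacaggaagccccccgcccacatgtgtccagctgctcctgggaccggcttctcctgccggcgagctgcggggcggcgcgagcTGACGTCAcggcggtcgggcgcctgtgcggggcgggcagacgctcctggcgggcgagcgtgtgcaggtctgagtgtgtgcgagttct
Uqcrfs1: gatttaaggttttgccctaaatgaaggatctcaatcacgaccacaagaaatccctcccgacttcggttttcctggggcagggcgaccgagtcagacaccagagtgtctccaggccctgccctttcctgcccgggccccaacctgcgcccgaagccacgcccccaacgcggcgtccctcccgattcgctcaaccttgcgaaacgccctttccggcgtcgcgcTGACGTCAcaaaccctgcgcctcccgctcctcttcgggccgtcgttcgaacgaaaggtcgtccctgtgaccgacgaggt

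In these sequences the first base of the match lay 72 bases before the start in Chgb, 57 in Meg3, 54 in Cltrn, 221 in G6pc, 72 in Aadat, 37 in Abcg2 and 29 in Uqcrfs1, and at base 15 of the transcript in Pdzk1. The HNF1 letters occurred in 0.801% of all 32851 promoters, in 0.281% of promoters of genes higher in brain and in 0.907% of those higher in kidney. HNF4 occurred in 0.475% of all, 0.394% of brain and 0.665% of kidney promoters. For CRE the shares were 1.79% of all, 2.98% of brain and 1.87% of kidney promoters. Genes within 2-fold held CRE in 3.24% of promoters and HNF1 and HNF4 in 0.364% and 0.441%. Genes below the floor held CRE in 1.61% and HNF1 and HNF4 in 0.817% each. Among promoters of genes at 16-fold or more, CRE was in 4 of 66 for brain and in 1 of 45 for kidney, HNF1 in 0 of 66 and 2 of 45, and HNF4 likewise in 0 of 66 and 2 of 45. These 66 and 45 promoters belong to 46 and 37 genes. A plain TATA box (TATAAA) was in 7 of 66 brain and 12 of 45 kidney promoters of that kind, 10.6% and 26.7%, against 13.6% of all promoters. For all genes called for brain, called for kidney, within 2-fold and below the floor, it was 7.32%, 9.19%, 7.47% and 14.3%. The median number of CG dinucleotides was 15 in those brain promoters, 6 in those kidney promoters and 7 in all. In the same 4 classes of genes the medians were 20, 19, 21 and 8. The other 3 motifs searched were ERR (TCAAGGTCA), a part of the REST site (GCGCTGTCC) and NRF1 (GCGCATGCG), found in 0.423%, 0.405% and 1.75% of all promoters. A match of letters is a description and no evidence of binding.

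Receptors and scaffolds of excitatory synapses were read mainly in brain. Of 16 genes of this group on the array, 12 were above the floor, 10 were called for brain and 0 for kidney, and the median log2 ratio was 2.17, against 0.05 over all genes above the floor. All 12 were under the floor in kidney and passed it through brain alone, so the direction of these counts and of the median was set by the floor. Nrgn, neurogranin, which holds calmodulin in dendritic spines, read 1896 in brain against 52.1 in kidney, at least 18.2-fold towards brain. Shank3, a scaffold of the postsynaptic density, read 906 in brain against 179 in kidney, at least 8.71-fold towards brain. Camk2b, a calcium-dependent kinase, read 827 in brain against 41.7 in kidney, at least 7.95-fold towards brain, and Gria1, an AMPA receptor subunit, 720.3 in brain against 14.2 in kidney, at least 6.93-fold towards brain. Camk2a, whose product is abundant in forebrain synapses, read only 79.8 in brain and 0.6 in kidney on its probe set here, below the floor on both arrays; it was picked out after its value was seen.

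Inhibitory transmission also leaned to brain. Of 17 genes on the array 15 passed the floor, and 11 of these were called for brain and 0 for kidney. Apart from Gphn, Abat and Pvalb, the genes that passed were under the floor in kidney and could be called only for brain. Calb2, calretinin of interneurons, read 1089.5 in brain against 3.6 in kidney, at least 10.5-fold towards brain. Gad1 was at least 9.84-fold higher, Gabbr1, a metabotropic GABA receptor subunit, read 868 in brain against 97.6 in kidney, at least 8.34-fold towards brain, and Gabrb1, a subunit of the GABA-gated channel, 618 in brain against 21 in kidney, at least 5.94-fold towards brain. Pvalb, parvalbumin, marks interneurons but is also made in the distal tubule. Its signals were 1397 in brain and 1221 in kidney, both above the floor, and its fold of 2.05 towards brain is measured. Fewer genes of monoamine and acetylcholine handling could be called: of 17 on the array, 11 were above the floor and 3 were higher in brain. Those were Ache, acetylcholinesterase, at 425 in brain and 32.9 in kidney, Drd2, the dopamine D2 receptor, at 244 in brain and 16 in kidney, and Chrna4, a nicotinic receptor subunit, at 238 in brain and 51.6 in kidney. These 3 were under the floor in kidney and could be called only for brain. The serotonin receptor Htr2c read 189 in brain and 10.6 in kidney and did not reach 2-fold over the floor.

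Genes of axon growth and guidance were mixed, with 15 of 26 above the floor higher in brain and 3 higher in kidney, out of 30 on the array. Of the 15, all but L1cam and Basp1 were under the floor in kidney and could be called only for brain. The stathmins, which destabilise microtubules in growing neurites, led the group. Stmn3 read 2256 in brain against 32.1 in kidney, at least 21.7-fold towards brain, Stmn2 2106 in brain against 43.3 in kidney, at least 20.2-fold towards brain and Stmn4 1068 in brain against 1.7 in kidney, at least 10.3-fold towards brain. Cntn1, contactin 1 of axon membranes, read 1639 in brain against 47.3 in kidney, at least 15.8-fold towards brain. The 3 exceptions were guidance signals that also act in vessels and epithelia. Nrp1, a receptor for semaphorins and vascular growth factor, read 209 in brain against 1689 in kidney, 4.51-fold towards kidney, Slit2, a repellent ligand, 150.2 in brain against 773 in kidney, 2.87-fold towards kidney, and Ntn1, netrin 1, 102 in brain against 477 in kidney, at least 2.56-fold towards kidney.

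The list of neuronal RNA-binding proteins and transcription factors also holds factors of oligodendrocytes. Its genes were higher in brain in 14 of 17 cases above the floor, with 0 higher in kidney and 22 on the array. All 17 but Mef2c were under the floor in kidney, so they could be called only for brain. Olig1, a factor of oligodendrocytes, read 1276 in brain against 2.2 in kidney, at least 12.3-fold towards brain. Rbfox1, a splicing regulator of neurons, read 1257 in brain against 27.7 in kidney, at least 12.1-fold towards brain, and Elavl2, a stabiliser of neuronal mRNA, 847 in brain against 13.4 in kidney, at least 8.15-fold towards brain. Neurod1, a factor of cerebellar granule cells, read 887 in brain against 9.2 in kidney, at least 8.53-fold towards brain. All 22 genes of the cytoskeleton and motor list on the array were above the floor, 17 higher in brain and 1 higher in kidney. Those higher in brain, apart from Dclk1, were under the floor in kidney and could be called only for brain. This list also holds the extracellular proteoglycan Spock2. Nefl read 2796 in brain against 9.9 in kidney, at least 26.9-fold towards brain. The exception was Tubb2b, a beta tubulin, with 284 in brain and 1721 in kidney, a fold of 3.38 towards kidney. Of 25 genes of cyclic nucleotide and protein kinase C signalling, 24 were above the floor, 18 were higher in brain and 0 in kidney. Gng3, a G protein gamma subunit of neurons, read 1861 in brain against 24.2 in kidney, at least 17.9-fold towards brain, and Prkcb, protein kinase C beta, 1832 in brain against 36.5 in kidney, at least 17.6-fold towards brain. Prkar1b, a regulatory subunit of protein kinase A, read 2845 in brain against 291 in kidney, 17.5-fold towards brain, and Gnao1, the main G protein alpha subunit of brain, 1793 in brain against 51.7 in kidney, at least 17.2-fold towards brain. Prkar1b was above the floor in kidney too, so its fold is measured. So were Prkcz, Prkacb, Adcy9, Pde2a, Prkaca, Pde4b and Prkce. The rest of the 18 were under the floor in kidney and could be called only for brain.

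Markers of several brain regions were present. In the forebrain list, 13 genes were on the array, 9 above the floor and 6 higher in brain. Nptx1, a secreted pentraxin of synapses, read 945 in brain against 41 in kidney, at least 9.09-fold towards brain, and Lamp5, of cortical interneurons, 548 in brain against 2.2 in kidney, at least 5.27-fold towards brain. The striatal genes Rgs9 and Ppp1r1b read 423 in brain against 92.7 in kidney, at least 4.07-fold towards brain for Rgs9, and 344 in brain against 45.8 in kidney, at least 3.31-fold towards brain for Ppp1r1b. The cerebellum and hindbrain list had 18 genes on the array, of which 12 passed the floor and 9 were called for brain. The Purkinje cell proteins Pcp4 and Pcp2 read 1906 in brain against 116 in kidney for Pcp4 and 934 in brain against 5.0 in kidney for Pcp2. Cbln1, a synapse organiser secreted by granule cells, read 799 in brain against 65.4 in kidney, at least 7.68-fold towards brain. The hypothalamus and pituitary list had 24 genes on the array, 16 above the floor and 11 higher in brain, with a median log2 ratio of 2.82. Beside Gh and Prl, Pomc read 3042 in brain against 52.7 in kidney, at least 29.2-fold towards brain and Chgb, a granin of secretory granules, 2002 in brain against 17.1 in kidney, at least 19.2-fold towards brain. For the 3 region lists the number higher in kidney was 0. Most of their genes above the floor were under it in kidney and could be called only for brain. The exceptions were Oxt in the hypothalamus and pituitary list and Penk and Wfs1 in the forebrain list. In the cerebellum and hindbrain list they were Calb1, Hoxb3, Pvalb and Car8. The direction of these counts and medians was thus set largely by the floor. The share of each region in the dissected tissue is not given by the labels.

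Several choroid plexus markers are also known as kidney genes, and the list of choroid plexus and ependyma markers leaned to kidney. Of 13 on the array 8 were above the floor, 5 of them higher in kidney and 1 in brain. Calml4, a calmodulin-like protein of brush borders, read 57.2 in brain against 4137 in kidney, at least 22.2-fold towards kidney. Cldn2, a claudin of leaky epithelia, read 59 in brain against 3315 in kidney, at least 17.8-fold towards kidney, Sostdc1, which blocks BMP and Wnt ligands outside the cell, 45.5 in brain against 2999.9 in kidney, at least 16.1-fold towards kidney, and Kl, klotho, the coreceptor of FGF23, 88.1 in brain against 2296 in kidney, at least 12.3-fold towards kidney. Ttr, transthyretin, the thyroxine carrier that choroid plexus secretes, read 5014 in brain and 5593 in kidney and was within 2-fold. It was picked out after its value was seen. Of its 3 probe sets above the floor, 1 was called for brain and 2 were not called. Igf2, a growth factor, was the 1 gene higher in brain, with 628 in brain and 327 in kidney, a fold of 3.44. With a floor at the 25th percentile the median of this list changed sign, to 0.62 from 11 genes, as the closing part gives.

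Genes of lipid synthesis and breakdown were called in both directions. Of 24 genes of sphingolipid and ganglioside synthesis or breakdown on the array, 23 were above the floor, 8 higher in brain and 4 higher in kidney. The shares were 34.8% and 17.4%, against 19.2% and 20.3% of all genes above the floor. Fa2h and Ugt8a, which make the hydroxylated galactolipids of myelin, read 917 in brain against 118 in kidney, at least 8.82-fold towards brain for Fa2h, and 1234 in brain against 376 in kidney, 5.89-fold towards brain for Ugt8a. The sialyltransferases St3gal2 and St3gal5, which build gangliosides, read 458 in brain against 155 in kidney for St3gal2 and 418 in brain against 159.8 in kidney for St3gal5. On the kidney side were Hexa and Gm2a, which break gangliosides down in lysosomes, with 380.4 in brain against 2493 in kidney for the first and 427 in brain against 1951 in kidney for the other. Degs1, a ceramide desaturase, read 355 in brain against 2243 in kidney, 3.53-fold towards kidney, and Sptlc2, of the first step of sphingolipid synthesis, 85.9 in brain against 439 in kidney, at least 2.36-fold towards kidney. For cholesterol, 23 genes passed the floor, 8 of them called for brain and 0 for kidney. Cyp46a1, the hydroxylase by which neurons shed cholesterol, read 960.5 in brain against 17.8 in kidney, at least 9.24-fold towards brain, Fdps, of the mevalonate pathway, 379 in brain against 179 in kidney, at least 3.64-fold towards brain, and Apoe, the lipid carrier of astrocytes, 4837 in brain against 2481 in kidney, 3.49-fold towards brain. Srebf2, the regulator of sterol synthesis genes, read 651 in brain against 388 in kidney, 3.005-fold towards brain. The sign of this list's median, 0.43, turned with signals as deposited (-0.38) and when centred on all probe sets.

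**Figure D3:**
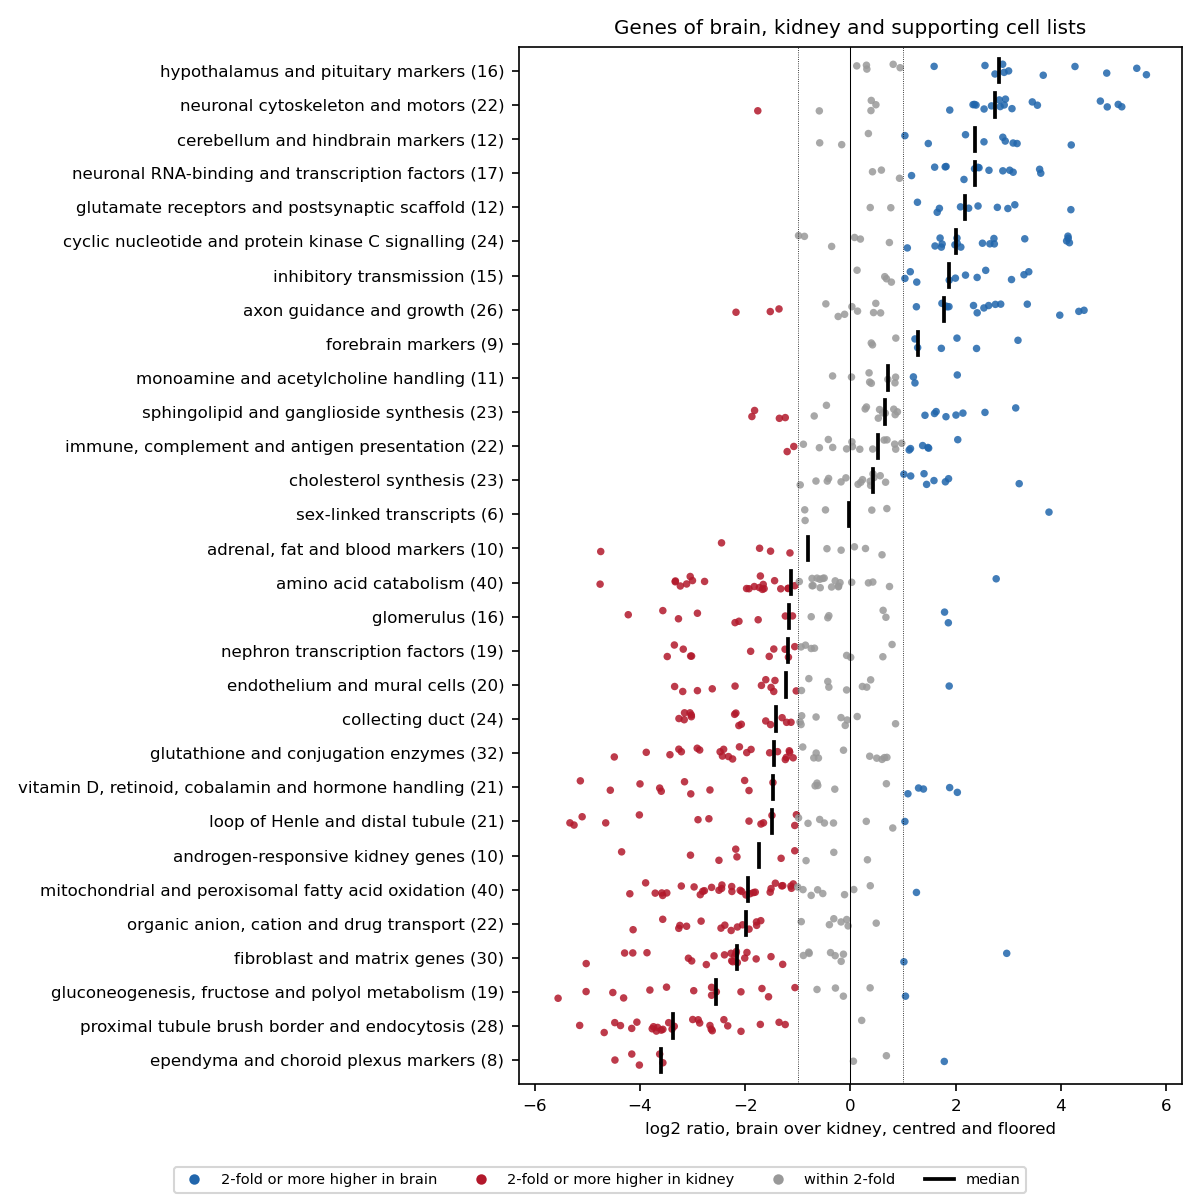
Each point is 1 gene above the floor, placed by its log2 ratio of brain over kidney, in the lists of brain, kidney and supporting cells, ordered by their medians (black bars); the number of genes is in brackets. Medians run from 2.82 for hypothalamus and pituitary markers to -3.59 for ependyma and choroid plexus markers, and dotted lines mark 2-fold.

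Brush border and endocytic genes of the proximal tubule were nearly all called for kidney, 96.4% of those above the floor. All 28 on the array were above the floor, 27 were called for kidney and 0 for brain, and the median log2 ratio was -3.37. Here and in the lists below, a gene at least N-fold higher in kidney was under the floor in brain. Such a gene could be called only for kidney, so to that extent the floor set the direction of these counts and medians. Slc34a1 was at least 25.6-fold higher in kidney. Pdzk1, a scaffold that holds transporters at the brush border, read 15.5 in brain against 4146 in kidney, at least 22.2-fold towards kidney, and Enpep, a peptidase that trims angiotensin, 66.2 in brain against 3848 in kidney, at least 20.6-fold towards kidney. The remaining gene was Slc6a20a, an imino acid transporter, with 121 in brain and 157 in kidney, under the floor in kidney. Transporters of organic ions and drugs gave 15 of 22 genes higher in kidney and 0 in brain, out of 27 on the array. Abcg2, an efflux pump for urate and drugs, read 116 in brain against 3636 in kidney, 17.5-fold towards kidney, and Slc22a8, the organic anion transporter OAT3, 92 in brain against 2206 in kidney, at least 11.8-fold towards kidney. Slc47a1, which extrudes organic cations into urine, read 32.7 in brain against 1786 in kidney, at least 9.58-fold towards kidney, and Slc13a1, a sulfate transporter, 44.5 in brain against 1759 in kidney, at least 9.44-fold towards kidney.

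Other segments of the nephron followed, with smaller shares. For the loop of Henle and distal tubule, 13 of 21 genes were higher in kidney and 1, Pvalb, in brain, with 23 on the array. Slc12a1, the salt cotransporter that furosemide blocks, read 67 in brain against 4674 in kidney, at least 25.1-fold towards kidney. For the collecting duct, 15 of 24 were higher in kidney and 0 in brain, with 27 on the array. The simple-epithelium keratins Krt8, Krt7 and Krt18 read 165 in brain against 2822 in kidney for Krt8, 8.2 in brain against 1662 in kidney for Krt7 and 65.9 in brain against 1540.0 in kidney for Krt18. Hsd11b2, which shields the aldosterone receptor from glucocorticoid, read 102 in brain against 1655 in kidney, at least 8.88-fold towards kidney. The genes of this group within 2-fold included Aqp4 and Car2, both chosen after their values were seen. Aqp4, a water channel of astrocyte end feet as well as of collecting duct, read 763 in brain and 755 in kidney. Of the 2 probe sets of Aqp4 above the floor, the other was called for brain. Car2, a carbonic anhydrase of glia as well as of intercalated cells, read 1825 in brain and 2987 in kidney.

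The glomerulus list was less one-sided. Of 20 genes on the array 16 were above the floor, 9 higher in kidney and 2 higher in brain. Npnt, nephronectin of basement membrane, read 142 in brain against 4736 in kidney, 18.6-fold towards kidney. Col4a5, a chain of the glomerular type of collagen IV, read 47.1 in brain against 2202 in kidney, at least 11.8-fold towards kidney. Podxl, the charged coat protein of podocytes, read 107 in brain against 1838 in kidney, 9.62-fold towards kidney, and Pdgfrb, the receptor of mesangial and other mural cells, 71.4 in brain against 1396 in kidney, at least 7.49-fold towards kidney. The genes higher in brain were Ehd3, an endocytic ATPase, with 789 in brain and 389 in kidney, and Synpo, synaptopodin of podocyte feet and dendritic spines, with 359 in brain and 20 in kidney. A second probe set of Synpo was called for kidney, at 16.3 in brain and 563.6 in kidney.

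Transcription factors of nephron and body position were higher in kidney in 11 of 19 cases above the floor and in brain in 0, out of 32 on the array. Hnf4a, a nuclear receptor of proximal tubule and liver, read 109 in brain against 2172 in kidney, 11.2-fold towards kidney. Tfcp2l1, a factor of distal nephron, read 42.5 in brain against 1893 in kidney, at least 10.2-fold towards kidney. Hoxd8 and Hoxa10, of the posterior body plan in which the kidney forms, read 51.6 in brain against 1684 in kidney, at least 9.03-fold towards kidney for Hoxd8, and 3.8 in brain against 1528 in kidney, at least 8.20-fold towards kidney for Hoxa10.

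In each of 3 metabolic lists of the tubule more genes were called for kidney than for brain. In amino acid catabolism 51 genes were on the array, 40 above the floor, 1 higher in brain, 21 higher in kidney and 18 not called. Dao, D-amino acid oxidase, read 95.3 in brain against 1872 in kidney, at least 10.04-fold towards kidney, and Cth, cystathionine gamma-lyase, 43.3 in brain against 1866 in kidney, at least 10.01-fold towards kidney. Pter, a phosphotriesterase-related protein, read 36.7 in brain against 1749.6 in kidney, at least 9.39-fold towards kidney. The gene on the brain side was Got1, the cytosolic aspartate aminotransferase of the malate-aspartate shuttle, with 1925 in brain and 506 in kidney, a fold of 6.82 towards brain. Its mitochondrial partner Got2, chosen after its value was seen, read 1670.4 in brain and 3495 in kidney and was within 2-fold on this probe set. Of the 2 probe sets of Got2 above the floor, the other was called for brain.

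In gluconeogenesis, fructose and polyol metabolism, 14 of 19 genes above the floor were higher in kidney and 1 in brain, with 21 on the array. G6pc, the phosphatase that releases free glucose, read 18.9 in brain against 4254 in kidney, at least 22.8-fold towards kidney, and Pck1, phosphoenolpyruvate carboxykinase, 1.4 in brain against 3690.2 in kidney, at least 19.8-fold towards kidney. Miox read 64.3 in brain against 6049 in kidney, at least 32.5-fold towards kidney. Me1, the malic enzyme that supplies NADPH, read 561 in brain and 487 in kidney and was 2.07-fold higher in brain. Fatty acid oxidation had 45 genes on the array, 40 above the floor, 31 higher in kidney and 1 in brain. Hadh, the dehydrogenase of short-chain intermediates, read 320.3 in brain against 8511 in kidney, 14.8-fold towards kidney, so its fold is measured. Acsm2, which activates medium-chain acids, read 61 in brain against 2435 in kidney, at least 13.1-fold towards kidney, and Slc25a20, the carnitine carrier of mitochondria, 108 in brain against 2310.0 in kidney, 11.98-fold towards kidney. The peroxisomal thiolases, near-identical genes, split. Acaa1b read 14 in brain against 3402 in kidney, at least 18.2-fold towards kidney, while Acaa1a read 314 in brain against 236 in kidney, 2.39-fold towards brain. Sequence shared between this pair means that the assignment of signal to each is uncertain.

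Detoxification and hormone handling were also weighted to kidney. Of 41 glutathione and conjugation genes on the array, 32 were above the floor, 22 higher in kidney and 0 in brain. Gpx3, the plasma glutathione peroxidase that kidney secretes, read 292 in brain against 7698 in kidney, 14.7-fold towards kidney. Gsta2 and Gstt2, both glutathione transferases, read 26.6 in brain against 4173 in kidney, at least 22.4-fold towards kidney for Gsta2, and 44.7 in brain against 2006 in kidney, at least 10.8-fold towards kidney for Gstt2, and Fmo1, a flavin monooxygenase, 179 in brain against 3078 in kidney, 9.58-fold towards kidney. Of 27 genes for vitamins and hormones, 21 were above the floor, 11 higher in kidney and 5 higher in brain. Tcn2, the plasma carrier of cobalamin, read 72.6 in brain against 4397 in kidney, at least 23.6-fold towards kidney, and Pth1r, the parathyroid hormone receptor, 20.3 in brain against 2975 in kidney, at least 15.96-fold towards kidney. Hsd11b1, which regenerates glucocorticoid, read 425 in brain against 95.9 in kidney, at least 4.09-fold towards brain, and Dio2, which activates thyroid hormone in astrocytes, 255 in brain against 125 in kidney, at least 2.45-fold towards brain. Aldh1a1 and Rbp4, which make and carry retinoids, read 384 in brain against 127 in kidney for Aldh1a1 and 222 in brain against 64.2 in kidney for Rbp4. Agt, angiotensinogen, read 426 in brain against 291 in kidney, 2.62-fold towards brain. Hsd11b1 and Hsd11b2, which run the same conversion in opposite directions, were thus called for different tissues.

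Androgen-responsive kidney genes were mostly dim. Of 22 on the array only 10 were above the floor, 7 of them higher in kidney and 0 in brain. Kap, a proximal tubule protein under androgen control, read 200.0 in brain against 7288 in kidney, 20.3-fold towards kidney. Cyp4a14, a fatty acid hydroxylase, read 30.5 in brain against 1530.1 in kidney, at least 8.21-fold towards kidney, Acsm1, which activates medium-chain acids, 49.7 in brain against 1052 in kidney, at least 5.65-fold towards kidney, and Odc1, of polyamine synthesis, 340.2 in brain against 2758 in kidney, 4.53-fold towards kidney. The sex of the animals is not in the labels. Of sex-linked genes, Xist, which coats the silenced X chromosome, gave 1422 in brain against 37.6 in kidney, at least 13.7-fold towards brain. Of the 2 Xist probe sets above the floor, the other was not called, and the call was lost without suffixed probe sets. Kdm5d and Uty, both on the Y chromosome and chosen after their values were seen, were below the floor on both arrays. Eif2s3y, on the Y chromosome, read 1.1 in brain and 339.9 in kidney, under 2-fold over the floor, and the X-linked Kdm6a and Kdm5c read 119 in brain against 388 in kidney for Kdm6a and 168 in brain against 81.6 in kidney for Kdm5c. The part of sex in the tissue differences was not tested.

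Most matrix genes were higher in kidney. Of 32 fibroblast and matrix genes on the array, 30 were above the floor, 21 higher in kidney and 2 higher in brain. Col3a1 read 112 in brain against 6506 in kidney, 32.4-fold towards kidney. Lgals1, galectin 1, read 137 in brain against 4783 in kidney, 19.5-fold towards kidney, Fbln5, an elastic fibre protein, 97.5 in brain against 3271 in kidney, at least 17.6-fold towards kidney, and Nid1, nidogen of basement membranes, 87.1 in brain against 2713 in kidney, at least 14.6-fold towards kidney. The exceptions were Sparcl1, a matricellular protein of astrocytes, with 2731 in brain and 625 in kidney, and Timp2, a metalloproteinase inhibitor, with 1680.2 in brain and 1487 in kidney. Of 26 genes of endothelium and mural cells, 20 were above the floor, 11 higher in kidney and 1 in brain. Acta2 and Tagln, of smooth muscle, read 242 in brain against 4385 in kidney for Acta2 and 14.6 in brain against 1148 in kidney for Tagln. Plvap, which spans the pores of fenestrated capillaries, read 104 in brain against 1695 in kidney, 9.10-fold towards kidney. The gene on the brain side was Slco1c1, a thyroxine transporter of the blood-brain barrier, with 382 in brain against 9.8 in kidney, at least 3.67-fold towards brain.

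Immune genes lay near the middle, with 6 of 22 above the floor higher in brain, 2 higher in kidney and 32 on the array. This gives 27.3% and 9.1%, against 19.2% and 20.3% of all genes above the floor. Coro1a, a coronin of leukocytes, read 428 in brain against 97 in kidney, at least 4.11-fold towards brain, Ctss, cathepsin S, 569 in brain against 364 in kidney, 2.80-fold towards brain, and P2ry12, a microglial receptor, 289 in brain against 15.1 in kidney, at least 2.78-fold towards brain. Ighm, the IgM heavy chain, read 269 in brain against 62.4 in kidney, at least 2.59-fold towards brain. For Ighm and for Coro1a, 2 probe sets were above the floor and the other was not called. Both calls were lost without suffixed probe sets and with the floor at the 75th percentile. H2-K1, a class I antigen, read 322 in brain and 1214 in kidney and Cfb, complement factor B, 28.9 in brain and 428 in kidney, both called for kidney. The median of this list, 0.53, changed sign with signals as deposited. Of 18 adrenal, fat and blood markers on the array, 10 were above the floor, 5 higher in kidney and 0 in brain. Fabp4 and Adipoq, of fat cells, read 24 in brain against 4989 in kidney for Fabp4 and 4.8 in brain against 616 in kidney for Adipoq. Ucp1, the uncoupling protein of brown fat, read 8.0 in brain against 1017 in kidney, at least 5.46-fold towards kidney, and Slc4a1, the anion exchanger of red cells and of intercalated cells, 32.3 in brain against 533 in kidney, at least 2.86-fold towards kidney. Fat genes stood beside 2 of the muscle and brown fat forms of cytochrome oxidase described next, and the part of attached fat in the kidney values was not tested.

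Calls of mitochondrial genes depended strongly on the scaling. Of 51 genes of the respiratory chain and ATP synthase on the array, 50 were above the floor, 19 higher in kidney and 0 in brain, with a median log2 ratio of -0.87. With loess centring 3 were higher in kidney and the median was -0.27, and with signals as deposited 41 and -1.74. Ndufa2, of complex I, read 552 in brain against 3626 in kidney, 3.66-fold towards kidney, and Uqcrfs1, the iron-sulfur protein of complex III, 682 in brain against 3610.1 in kidney, 2.95-fold towards kidney. Cox8b and Cox7a1, the forms of 2 cytochrome oxidase subunits used in muscle and brown fat, read 11.5 in brain against 839 in kidney for Cox8b and 23.4 in brain against 629 in kidney for Cox7a1. Of 28 citrate cycle genes, all above the floor, 16 were higher in kidney and 1, Me1, in brain, and with loess centring 8 and 1. Idh2, the mitochondrial NADP-dependent isocitrate dehydrogenase, read 121 in brain against 2854 in kidney, 13.2-fold towards kidney, and its cytosolic counterpart Idh1 199 in brain against 3338 in kidney, 9.36-fold towards kidney. Aco1, the cytosolic aconitase that also senses iron, read 262 in brain against 4598 in kidney, 9.81-fold towards kidney, and Suclg2, of GTP-forming succinyl-CoA ligase, 95.4 in brain against 1031 in kidney, at least 5.53-fold towards kidney.

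Glycolysis separated by isoform, with 7 of 21 genes above the floor higher in brain, 5 higher in kidney and 22 on the array. Those shares were 33.3% and 23.8%, against 19.2% and 20.3% of all genes above the floor. Eno2, the neuronal enolase, read 2815 in brain against 27.3 in kidney, at least 27.1-fold towards brain. Aldoc, the aldolase of brain, read 4199 in brain against 413 in kidney, 18.2-fold towards brain, Slc2a3, the glucose transporter of neurons, 1589 in brain against 127 in kidney, at least 15.3-fold towards brain, and Pfkm, a phosphofructokinase, 1439 in brain against 568 in kidney, 4.54-fold towards brain. On the kidney side were Slc2a1, the general glucose transporter, with 338 in brain and 1846 in kidney, and Ldha, lactate dehydrogenase A, with 837 in brain and 4167 in kidney. The lactate transporters Slc16a1 and Slc16a7 read 356 in brain against 1823 in kidney for Slc16a1 and 8.4 in brain against 501 in kidney for Slc16a7, and Pgam2, the muscle phosphoglycerate mutase, 9.5 in brain and 556 in kidney. The list's median of 0.03 changed sign with the scaling.

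Among genes of protein quality control, more were called for kidney than for brain with 1 centring value, and the counts moved with loess centring. Of 34 proteasome genes 32 were above the floor, 1 higher in brain and 9 in kidney, and with loess centring 1 and 3. With 1 centring value the shares were 3.1% and 28.1%, against 19.2% and 20.3% of all genes above the floor. Psmb3, Psma5, Psma7 and Psma6, subunits of the core particle, were between 2.79-fold and 3.56-fold higher in kidney. Psmc5, an ATPase of the cap, read 1249.5 in brain and 848 in kidney and was called for brain. Of 33 cytosolic chaperones 3 were higher in brain and 9 in kidney, shares of 9.1% and 27.3%. With loess centring the counts were 5 and 4, so the weighting of this list did not hold under that setting. Hspa1b, a stress-inducible HSP70, read 81.2 in brain against 2746 in kidney, at least 14.7-fold towards kidney. St13, a cochaperone of HSP70, read 82.7 in brain against 714 in kidney, at least 3.83-fold towards kidney, and Hspa4, an HSP70 relative, 317 in brain against 1682 in kidney, 2.96-fold towards kidney. On the brain side were Dnajb2, a cochaperone of neurons, with 874 in brain and 243 in kidney, Hsph1, with 913 in brain and 684 in kidney, and Hsp90aa1, the inducible HSP90, with 3954 in brain and 3297 in kidney. Among 32 endoplasmic reticulum genes, all above the floor, 3 were higher in brain and 15 in kidney, and with loess centring 2 and 10. Dnajc3, P4hb, Ppib and Sec61b, of folding and import into the reticulum, were between 3.78-fold and 3.94-fold higher in kidney. Sel1l and Syvn1, which together pull misfolded proteins out for degradation, read 459.6 in brain against 227 in kidney for Sel1l and 386 in brain against 217 in kidney for Syvn1, and Atf6, a sensor of unfolded proteins, 283 in brain and 244 in kidney; these 3 were called for brain.

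Regulators of splicing and time were mixed. Of 39 splicing genes 38 were above the floor, 10 higher in kidney and 2 in brain. The shares were 26.3% and 5.3%, against 20.3% and 19.2% of all genes above the floor. The median log2 ratio of this list was -0.39, and over the scalings tried it ran from -1.18 to -0.05. Snrpe and Snrpd3, core proteins of spliceosomal particles, read 517 in brain against 4982 in kidney for Snrpe and 138 in brain against 1196 in kidney for Snrpd3, although a second probe set of Snrpd3 was called for brain at 332.6 in brain and 191.0 in kidney. Khdrbs3, a splicing regulator of brain, read 456 in brain against 265 in kidney, 3.09-fold towards brain. Of 20 clock genes 16 were above the floor, 6 higher in brain and 1 in kidney. Rora, a nuclear receptor of Purkinje cells and of the clock, read 669.9 in brain against 177 in kidney, at least 6.44-fold towards brain, Nr1d1, its repressing counterpart, 489 in brain against 63.5 in kidney, at least 4.70-fold towards brain, Tef, a clock output factor, 1459 in brain against 529.7 in kidney, 4.93-fold towards brain, and Per1 471 in brain against 219 in kidney, 3.85-fold towards brain. Bhlhe40, a repressor of clock genes, was 2.00-fold higher in kidney with 261 in brain and 936 in kidney. Hours of sampling are not in the labels.

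Most genes of cell division were higher in kidney. Of 36 on the array 31 were above the floor, 22 called for kidney and 3 for brain, at a median log2 ratio of -1.60. Cdkn1c, an imprinted inhibitor of the cell cycle made by podocytes and growing tissue, read 77.4 in brain against 3314 in kidney, at least 17.8-fold towards kidney. Rrm2, the ribonucleotide reductase subunit of S phase, read 34.2 in brain against 2664 in kidney, at least 14.3-fold towards kidney, and Cdc20, an activator of mitotic exit, 72.8 in brain against 1539 in kidney, at least 8.26-fold towards kidney. The proliferation markers Mki67, Top2a and Cdk1, chosen after their values were seen, read 14.9 in brain against 841 in kidney for Mki67, 56.7 in brain against 749.6 in kidney for Top2a and 40.8 in brain against 716 in kidney for Cdk1, each under the floor in brain. The 3 genes on the brain side were Cdk5, Cdk5r1 and Cdkn2d. Cdk5 is a kinase of postmitotic neurons, with 528 in brain and 251 in kidney, Cdk5r1 is its activator, with 891 in brain and 57.6 in kidney, and Cdkn2d is a cell cycle inhibitor, with 565 in brain and 453 in kidney. The age of the animals is not in the labels.

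Metal handling had 23 genes above the floor of 24 on the array, 6 higher in kidney and 2 in brain. These are 26.1% and 8.7%, against 20.3% and 19.2% of all genes above the floor. Mt3, the metallothionein of neurons and astrocytes, read 2234 in brain against 20.3 in kidney, at least 21.5-fold towards brain. Slc30a3, which loads zinc into synaptic vesicles, read 636 in brain against 131 in kidney, at least 6.11-fold towards brain. On the kidney side Slc40a1, ferroportin, the iron exporter, read 133 in brain against 2099 in kidney, 8.84-fold towards kidney, Slc39a8, an importer of zinc and manganese, 43.3 in brain against 1311 in kidney, at least 7.04-fold towards kidney, and Heph, a copper-dependent iron oxidase, 29.2 in brain against 1172 in kidney, at least 6.29-fold towards kidney.

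**Figure D4:**
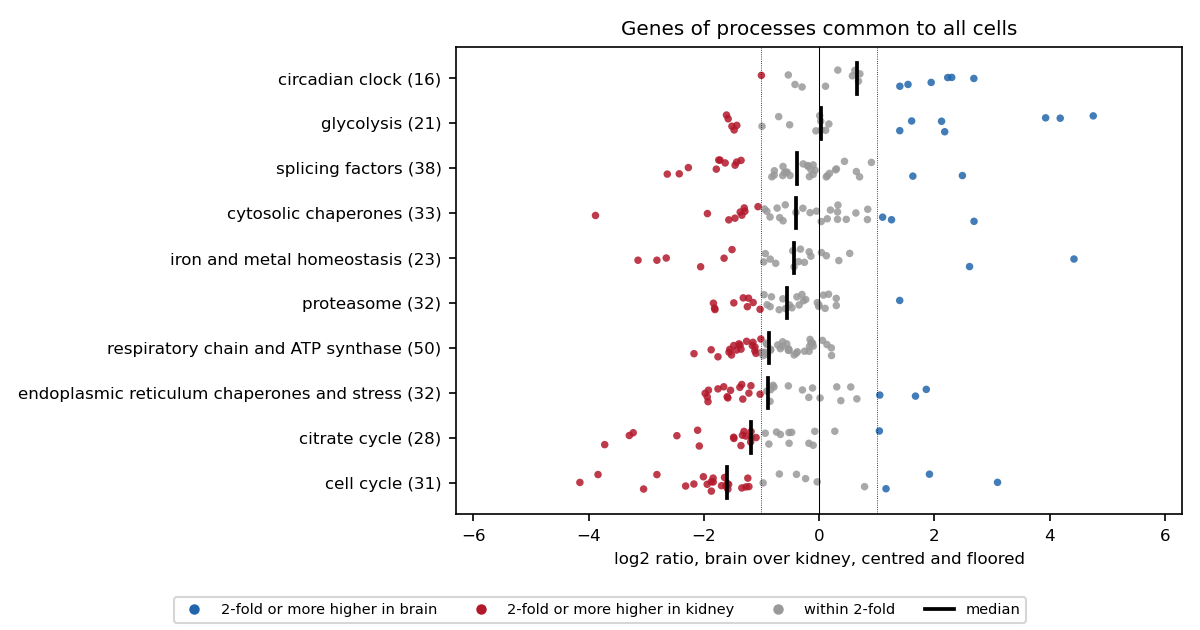
Each point is 1 gene above the floor, placed by its log2 ratio of brain over kidney, in lists of processes found in most cells, ordered by their medians (black bars); the number of genes is in brackets. Medians run from 0.65 for the circadian clock to -1.60 for the cell cycle, and dotted lines mark 2-fold.

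Some related genes took opposite sides. Of 35 pairs written down, both genes of 24 could be read here, and 7 pairs had 1 member called for each tissue. Slc12a5, the chloride exporter of neurons, read 2432 in brain and 43.5 in kidney, whereas its relative Slc12a1 was at least 25.1-fold towards kidney. Slc4a10, a bicarbonate transporter of neurons, read 986 in brain against 8.9 in kidney, at least 9.48-fold towards brain, and Slc4a4, the bicarbonate exit of the proximal tubule, 434 in brain against 2434 in kidney, 3.13-fold towards kidney. Cldn11, the claudin of myelin, read 695 in brain against 299 in kidney, 4.16-fold towards brain, opposite to Cldn2. Among splicing regulators, Ptbp2, the form that neurons switch on, read 677 in brain against 216 in kidney, 5.61-fold towards brain, and Ptbp1, the general form, 216 in brain against 2407 in kidney, 6.21-fold towards kidney. All 4 of those signals were above the floor. The RNA stabilisers Elavl4 and Elavl1 read 367 in brain against 16.2 in kidney for Elavl4 and 149 in brain against 767 in kidney for Elavl1, and the V-ATPase subunits Atp6v1b2 and Atp6v1b1, the second of intercalated cells, 2186 in brain against 1465 in kidney for Atp6v1b2 and 8.0 in brain against 856 in kidney for Atp6v1b1. Of the sulfotransferases, Sult4a1, an orphan member of brain, read 896 in brain and 2.9 in kidney, and Sult1d1 19.9 in brain and 879 in kidney. In the other 17 pairs read here, both members were called for brain in 3 and at least 1 member was not called in 14. Eef1a1, the general partner of Eef1a2, read 6183 in brain and 9222 in kidney and was within 2-fold; it was picked out after its value was seen.

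Different probe sets of a gene did not always give 1 answer. Of 2830 genes with more than 1 probe set above the floor, 287 had all called for brain, 275 all called for kidney and 944 none called. In 600 some were called for brain and the rest not called, in 639 some for kidney, and in 85 probe sets were called in both directions. The SD of log2 ratios within a gene was 0.88. The SD of 0.25 given above is for brain over brain ratios of 98 probe sets above the median on both brain arrays. It is therefore not a like measure. Among the list genes called here, 195 had more than 1 probe set above the floor. In 112 of them all shared the call, in 78 some were not called, and in 5 (Synpo, Rgs5, Snrpd3, Srsf1 and Sf3b2) 1 probe set was called for the opposite tissue.

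The 10 genes with the widest gap between opposite calls began with Ezr, ezrin, which ties brush borders to actin. Its probe sets read 602.0 in brain against 273.2 in kidney, and 183.7 in brain against 3351 in kidney, log2 ratios of 1.98 and -3.35. For Cdc42, a GTPase of cell polarity whose last exon differs between brain and other tissues, 1 probe set read 846.2 in brain and 101.0 in kidney and another 532.2 in brain and 4591 in kidney. Cd151, Rad21, Sec61a1, BC004004, Anp32a, Speg and Sypl followed, with gaps of 4.12 to 4.92 on the log2 scale. For these 9 genes at least 1 of the probe sets carries a suffix by which Affymetrix marks sets shared between transcripts or open to cross-hybridisation. Cpd, a carboxypeptidase of the Golgi, was the only one of the 10 in which both were of the plain kind. Its probe sets read 489.1 in brain and 45.7 in kidney, and 146.2 in brain and 1084 in kidney. Probe sets with the x suffix leaned to kidney as a class, with 121 of 1033 above the floor called for brain and 442 for kidney, against 1833 and 1422 of 8572 plain sets. Which transcript each probe set detects was not tested.

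**Figure D5:**
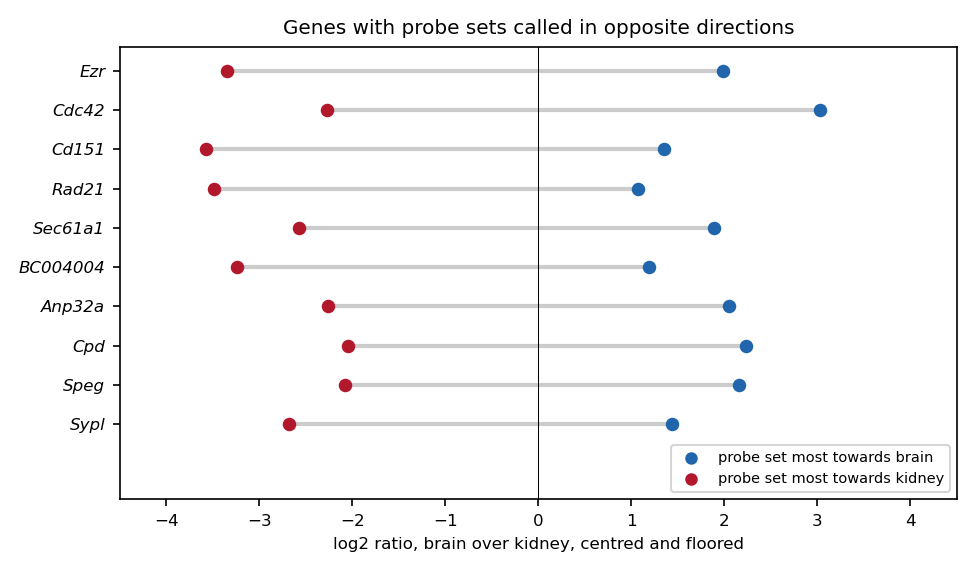
For each of the 10 genes with the widest gap, the x axis gives the log2 ratio, brain over kidney, of the probe set most towards brain and of the one most towards kidney, joined by a bar. Ezr spans 1.98 to -3.35, and in each gene the points lie on opposite sides of zero.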

How the data were processed

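Sense signals of total mouse brain and total mouse kidney were read on 1 Affymetrix array each, and no sample repeats a tissue, so no p-value was computed. The deposited values are MAS5 signals, per the submitters' processing notes: a probe set intensity on a linear scale, made by the authors from the probes of each array. The sources used here do not give the scaling target, and the deposited tables give no detection calls, so precision is limited by the number of arrays and by a floor on the signal.

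From these signals, log2 ratios of brain over kidney were centred, floored at the higher of both array medians and called at 2-fold, with Python 3.11.15, pandas 2.3.3, numpy 2.4.6 and, for loess centring, statsmodels 0.14.6 (span 0.3). The counting rule was tested on data simulated from the kidney array, with changes put into bright probe sets only. That simulation had no trend of the ratio with signal, so it cannot show how the rule performs on these arrays. Of the 22626 shared probe sets, 20380 had 1 gene symbol in GEO's platform annotation, 691 several and 1555 none; gene identifiers were looked up in the RefSeq table of GRCm38.p6, and only the first kind is named.

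The 40 gene lists, the 35 related pairs and the comparison itself were chosen with earlier results of these data known. Genes named are the 15 furthest each way, the 4 of each list with the largest ratio plus members called against the list's direction, opposite pairs and the 10 genes with the widest gap between probe sets. Genes outside this rule are marked as chosen after their values were seen, except the defining markers and those called out for a count. Missing list genes were not analysed here. Alternatives were other scalings, floors, a 3-fold threshold, probe sets without suffixes and the median over a gene's probe sets.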

Additional observations from a re-analysis of the deposited data

How the results depend on the processing

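With signals as deposited, 1515 probe sets were called for brain and 5358 for kidney (22.0% of calls for brain, against 48.5% as reported), and centred on all shared probe sets 1938 and 4760 (28.9%). These scalings put the median of all gene ratios at -0.68 and -0.46, in place of 0.05. With the floor at the 75th percentile the counts were 1043 for brain and 1693 for kidney, at the 25th percentile 5379 and 3692, at 3-fold 1340 and 1527, and without suffixed probe sets 1833 and 1422. Centring on the probe sets shared by 430A and 430B gave 2738 and 2637, quantile normalization 3011 and 3127, and loess 2785 and 2909. The 40 list medians kept their sign in all alternatives for 35 lists. The median of ependyma and choroid plexus markers was 0.62 with the floor at the 25th percentile, where 11 genes in place of 8 were above the floor. The signs of cholesterol synthesis, glycolysis and immune genes turned with signals as deposited and when centred on all probe sets, and that of the sex-linked genes turned in 4 alternatives. Of 195 named genes with a call, 143 kept it in all alternatives, 52 lost it in at least 1 and 0 reversed; the floor at the 75th percentile lost 28 of these calls, leaving out suffixed probe sets 19 and the 3-fold threshold 12. Of the 30 leading genes, 29 kept their call throughout; Fxyd2 lost it without suffixed probe sets. The causes were not tested. No paired analysis was possible because each tissue has 1 array. Genes under the floor on both arrays have no order, and every value rests on 1 array of a different type for each tissue.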

Other observations

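The lists in this paragraph were written after the values were seen, and the values are given with no explanation. Of 15 genes known from fetal and growing tissue, 9 were above the floor, 3 of them higher in kidney and 3 in brain. Gpc3, a glypican that restrains growth, read 49.6 in brain and 2834 in kidney, a difference of at least 15.2-fold. Afp, alpha-fetoprotein, read 35.9 in brain and 612 in kidney, a difference of at least 3.28-fold, and the third gene on that side was Cdkn1c. The 3 on the brain side were Igf2, Dlk1 and Peg3. Six2, Cited1 and Eya1, which mark the progenitors that form nephrons, were below the floor on both arrays. Wnt4, which starts the turn of those progenitors into epithelium, read 99.9 in brain and 295 in kidney, within 2-fold once floored.

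Of 9 genes known from brown fat, 7 were above the floor, 6 of them higher in kidney and 0 in brain. Beside Ucp1, Fabp4, Adipoq, Cox8b and Cox7a1, the lipid droplet protein Cidea was under the floor in brain and read 560.1 in kidney, a difference of at least 3.01-fold. Ppargc1a, a coactivator of mitochondrial genes, read 236 in brain and 498 in kidney and was within 2-fold. Lep, leptin of white fat, was below the floor on both arrays.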
